A study of Mus musculus with 6 samples.

Results

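Nynrin, Nrk, Ston2, Edil3, Tmem132b, Armcx1, Mxra7 and Sostdc1 are 8 mouse genes whose RNA differed widely between 2 clones of neural progenitor cells labelled as knockouts. They were chosen by their counts in clone 2 and clone 1 and were found by symbol, once each, among the 42365 genes of the count table. All 8 were among the 23400 genes tested. RNA sequencing covered 6 libraries of neural progenitors, dividing cells from which neurons and glia are made. Of these, 2 were of clone 2 and 2 of clone 1, both with the genotype label KO and library names that begin with PARKIN_KO. The other 2 were of parental cells labelled WT, whose titles number them as clones. The sources used here do not give how the knockout was made, the age or strain of the animal, any treatment, or whether libraries of a group were separate cultures, so p-values hold for the spread between libraries and this spread may be technical. Each knockout line is 1 clone, so what belongs to the clone and what belongs to the genotype cannot be told apart.

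The difference between the clones selected the 8 genes and is described without a test. The choice used no numeric limit. Levels are given in CPM, read counts scaled to library size with TMM factors. Of 10939 named genes that averaged at least 5 CPM, the 8 held ranks between 7 (Nrk) and 32 (Tmem132b) by the size of the log2 fold change of clone 2 over clone 1. Between the clones 36.4% of all tested genes had an adjusted p under 0.05, 16.1% higher and 20.3% lower in clone 2, and the 8 genes are among them by choice. Each clone against parental shares its libraries with that choice, since a gene that differs between the clones must lie away from parental in at least 1 of them. Those values are also given without p. The average of both clones against parental was tested, but it rests on the same clone libraries as the choice. For a gene near parental in 1 clone, the average follows from the clone difference, so that p is not given either. Only with the clones as replicates are p-values of the average given.

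The 8 genes belong to no common pathway. Armcx1 encodes a protein of the mitochondrial outer membrane that promotes the transport of mitochondria along axons in mouse neurons. Ston2 encodes stonin 2, an endocytic adaptor that sorts synaptotagmin into clathrin-coated vesicles. Edil3 encodes a secreted matrix ligand of integrins, and Sostdc1 a secreted antagonist of BMP and Wnt signals. Nrk encodes a kinase of the germinal centre kinase family, and Nynrin a protein with a ribonuclease-like NYN domain and a domain related to retroviral integrases. Tmem132b and Mxra7 encode membrane proteins whose roles are less well known.

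Library totals ran from 58871554 to 69530032 counts. Genes with a count numbered 31262 and 30747 in clone 2, 32686 and 32130 in clone 1, and 37678 and 37419 in parental libraries. The source of this difference was not tested. All 6 neural progenitor markers averaged at least 1 CPM and summed to 3016 to 3029 CPM in clone 2, 2421 to 2429 in clone 1 and 2895 to 2911 in parental libraries. The largest part was Vim (1802, 1235 and 1978 CPM in clone 2, clone 1 and parental cells). Nes (186, 170 and 79.6 CPM) and Fabp7 (606, 601 and 165 CPM) were higher in both clones. Vim, Sox2 (322, 308 and 358 CPM), Msi1 (104, 106 and 262 CPM) and Sox1 (3.17, 3.35 and 60.5 CPM) were lower in both. The 5 astrocyte markers summed to 2572 to 2592 CPM in clone 2, 1631 to 1645 in clone 1 and 5201 to 5244 in parental libraries. Gfap (9.70, 1.59 and 2691 CPM in clone 2, clone 1 and parental cells) and Aqp4 (28.7, 25.2 and 742 CPM) were lower in the clones. S100b (90.1, 70.5 and 52.4 CPM) and Slc1a2 (1567, 1113 and 1054 CPM) were higher in both, and Aldoc (887, 428 and 683 CPM) was higher in clone 2 and lower in clone 1. The 5 markers of oligodendrocyte precursors summed to 6175 to 6440 CPM in clone 2, 5233 to 5336 in clone 1 and 1271 to 1273 in parental libraries. Most of that sum was Olig1 (3957, 3072 and 617 CPM in clone 2, clone 1 and parental cells) and Olig2 (1739, 1719 and 412 CPM). These and Cspg4 (578, 436 and 186 CPM) were higher in both clones. Pdgfra (31.2, 56.7 and 56.6 CPM) was lower in clone 2 and level in clone 1. Sox10 (2.53, 0.64 and 1.38 CPM) was higher in clone 2 and lower in clone 1. The 5 markers of young neurons summed to 1037 to 1061, 1341 to 1496 and 1061 to 1069 CPM in the same order of groups, nearly all of it Map2 (1035, 1403 and 975 CPM). The other 4 were lower in both clones than in parental cells, as with Dcx at 8.43, 10.4 and 66.8 CPM. Markers of microglia, endothelium, fibroblasts and pluripotent cells, 5 of each, summed to between 0.951 and 4.10 CPM in every library; in clone 2 Cdh5, Lum, Zfp42 and Dppa5a had no count. Marker levels moved with the groups, and their part in the values below was not tested. In such bulk libraries fewer cells that express a gene and less RNA per cell cannot be told apart.

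The label of genes switched between the clones held for part of the set. Nynrin and Nrk were low in clone 2 and near or above the parental level in clone 1. Armcx1 and Mxra7 were low in clone 1 and near or above the parental level in clone 2. Ston2, Edil3 and Tmem132b were lower in both clones, most in clone 2, and Sostdc1 was higher in both, most in clone 1. None of the 8 was at 0 counts in any library.

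**Figure D1:**
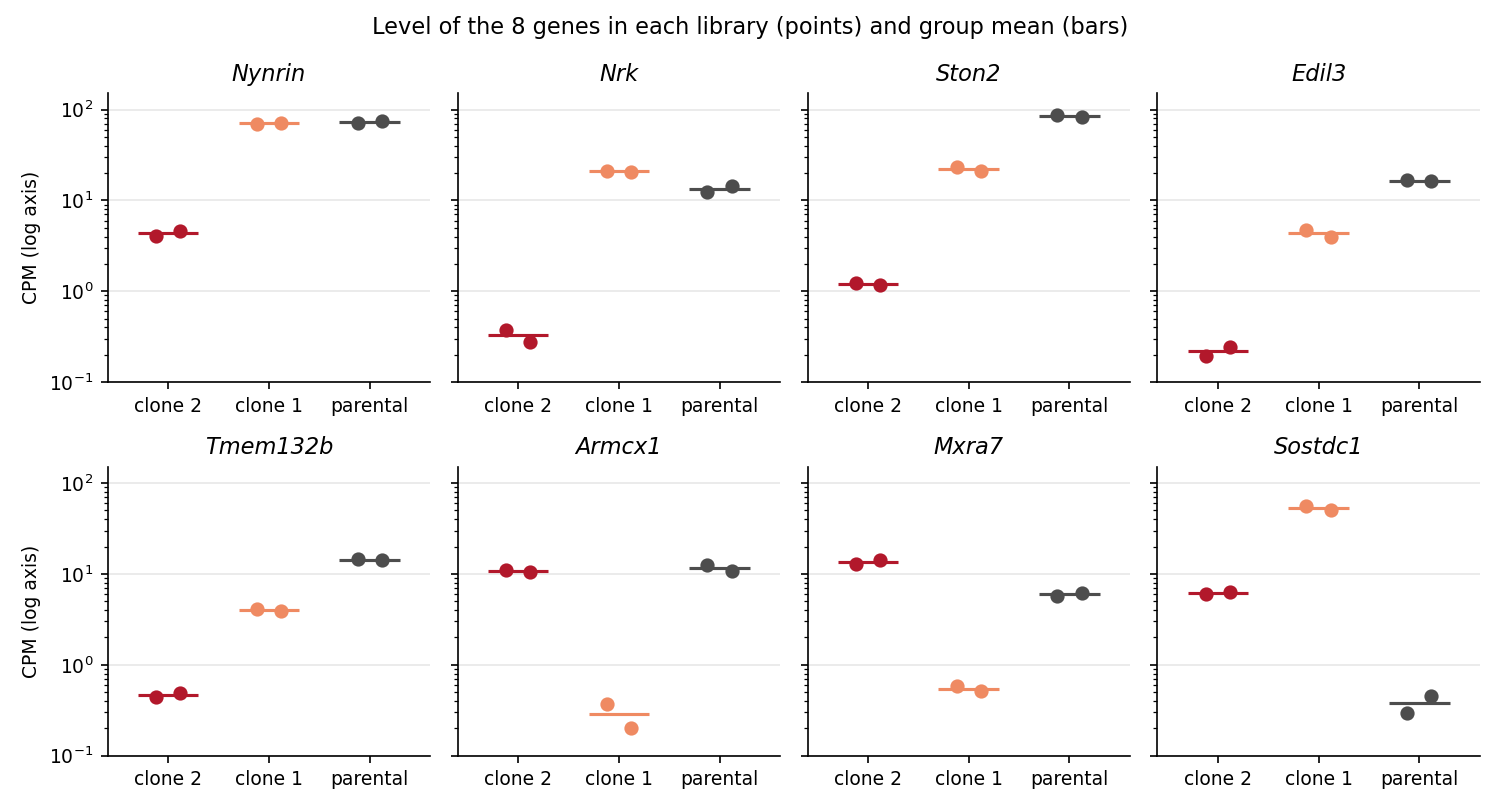
Level of each of the 8 genes in CPM on a log axis, in the 2 libraries of clone 2, clone 1 and parental cells (points) with the group mean (bars). The libraries of a group lie close together, and the low group is clone 2 for 5 genes, clone 1 for Armcx1 and Mxra7, and parental cells for Sostdc1.

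Nynrin lies on chromosome 14 (GRCm38, 55854010 to 55874736, plus strand). It had 4.08 and 4.66 CPM in clone 2, 69.3 and 71.2 CPM in clone 1, and 71.8 and 74.5 CPM in parental libraries. Clone 2 stood at 5.97% of the parental mean and clone 1 at 96.0%, and no library of clone 2 came near the others. On the log2 scale, clone 2 lay 4.07 below parental (log2 fold change -4.07, SE 0.07), and clone 1 differed from parental by -0.06 (SE 0.05), about as much as its standard error. Clone 2 over clone 1 was -4.01 (SE 0.07). The raw counts were 270 and 287 in clone 2, against 4543 and 4884 in clone 1 and 4604 and 4390 in parental libraries.

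Nrk lies on the X chromosome (138914430 to 139010532, plus strand). It had 0.377 and 0.276 CPM in clone 2, 21.2 and 20.4 CPM in clone 1, and 12.4 and 14.5 CPM in parental libraries. Clone 2 was below and clone 1 above both parental libraries, and the 3 groups did not overlap. Against parental the log2 fold change was -5.35 (SE 0.16) in clone 2 and 0.63 (SE 0.09) in clone 1. Clone 2 over clone 1 was -5.98 (SE 0.15), the widest gap among the 8. Clone 2 gave only 25 and 17 reads, so its level is the less certain end of that ratio.

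Armcx1 lies on the same chromosome, at 134717963 to 134721917 on the plus strand, and had the opposite pattern. It had 10.9 and 10.4 CPM in clone 2, 0.366 and 0.204 CPM in clone 1, and 12.4 and 10.8 CPM in parental libraries. The libraries of clone 2 and of parental cells overlapped, while clone 1 stood at 2.45% of the parental mean, from 24 and 14 reads. Relative to parental cells, the log2 fold change was -0.12 (SE 0.11) in clone 2 and -5.35 (SE 0.18) in clone 1, and clone 2 over clone 1 was 5.23 (SE 0.18).

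Mxra7, named for an association with matrix remodelling, lies on chromosome 11 (116803062 to 116828046, minus strand). It had 12.8 and 14.1 CPM in clone 2, 0.58 and 0.51 CPM in clone 1, and 5.72 and 6.16 CPM in parental libraries. Clone 2 was above and clone 1 below both parental libraries, with no overlap. Relative to parental cells, the log2 fold change was 1.18 (SE 0.10) in clone 2 and -3.44 (SE 0.15) in clone 1, and clone 2 over clone 1 was 4.62 (SE 0.14). Mxra7 and Nrk were the members that moved in opposite directions in the clones; over all tested genes 490 (2.09%) passed the threshold in both clones with opposite signs.

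The promoter windows of these 4 genes are shown because each gene was far below parental in a single clone and near or above it in the other; this selection was made after the values were seen. Each window runs from 250 bases before to 50 bases after an annotated start in RefSeq (GRCm38.p6), read 5′ to 3′ on the gene's strand, with every CG dinucleotide, the site of DNA methylation in mammals, in capitals.
Nynrin, chr14:55853865-55854164, plus strand: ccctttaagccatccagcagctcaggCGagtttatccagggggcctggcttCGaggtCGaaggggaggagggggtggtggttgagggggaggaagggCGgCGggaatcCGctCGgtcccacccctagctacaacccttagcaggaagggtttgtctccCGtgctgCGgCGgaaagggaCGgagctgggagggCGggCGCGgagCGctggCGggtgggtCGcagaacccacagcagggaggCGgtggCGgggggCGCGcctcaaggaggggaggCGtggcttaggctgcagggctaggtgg
Nrk, chrX:138914180-138914479, plus strand: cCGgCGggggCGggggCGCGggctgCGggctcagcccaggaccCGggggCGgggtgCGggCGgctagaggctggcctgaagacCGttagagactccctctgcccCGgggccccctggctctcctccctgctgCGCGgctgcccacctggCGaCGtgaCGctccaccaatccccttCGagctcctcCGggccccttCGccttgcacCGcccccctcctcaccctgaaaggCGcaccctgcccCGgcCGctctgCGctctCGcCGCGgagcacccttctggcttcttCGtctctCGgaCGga
Armcx1, chrX:134717688-134717987, plus strand: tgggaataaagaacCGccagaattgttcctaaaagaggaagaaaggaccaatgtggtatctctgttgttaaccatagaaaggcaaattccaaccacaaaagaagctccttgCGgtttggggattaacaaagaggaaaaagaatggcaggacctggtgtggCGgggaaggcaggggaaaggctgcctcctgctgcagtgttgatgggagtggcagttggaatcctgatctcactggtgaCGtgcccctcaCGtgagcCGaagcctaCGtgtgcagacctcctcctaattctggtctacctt
Mxra7, chr11:116827997-116828296, minus strand: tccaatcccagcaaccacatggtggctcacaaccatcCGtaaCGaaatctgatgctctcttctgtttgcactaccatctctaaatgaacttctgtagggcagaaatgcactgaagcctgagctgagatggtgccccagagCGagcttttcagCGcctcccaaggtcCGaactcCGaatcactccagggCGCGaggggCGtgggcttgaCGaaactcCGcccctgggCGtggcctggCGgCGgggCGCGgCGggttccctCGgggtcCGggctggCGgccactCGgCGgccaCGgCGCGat
The Nrk window held 31 CG dinucleotides, that of Mxra7 25, that of Nynrin 22 and that of Armcx1 7. Over 32851 windows of the same length the median was 7, with quartiles of 3 and 20. As many as in Nrk or more were found in 10.6% of windows, as many as in Mxra7 in 18.4%, as many as in Nynrin in 23.1% and as many as in Armcx1 in 52.1%. The CG-dense windows of Nrk and Nynrin belong to genes low in clone 2, and of the 2 genes low in clone 1, Mxra7 had a CG-dense window and Armcx1 one at the median. A second RefSeq start of Mxra7 had 13. The windows of Tmem132b and Ston2 held 15 and 8. DNA methylation was not measured in these libraries.

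Ston2 lies on chromosome 12 (91633009 to 91788387, minus strand). It had 1.22 and 1.17 CPM in clone 2, 23.1 and 20.9 CPM in clone 1, and 86.8 and 83.6 CPM in parental libraries. The groups formed a ladder without overlap, with clone 2 at 1.40% and clone 1 at 25.8% of the parental mean. The log2 fold change against parental was -6.15 (SE 0.09) in clone 2 and -1.95 (SE 0.06) in clone 1. Gm16876 overlaps Ston2 on the opposite strand and Gm8378 on the same strand, with at most 20 and 47 counts in a library.

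Edil3 lies on chromosome 13 (88821472 to 89323223, plus strand). It had 0.196 and 0.243 CPM in clone 2, from 13 and 15 reads, 4.71 and 3.98 CPM in clone 1, and 16.7 and 16.4 CPM in parental libraries. Clone 2 stood at 1.33% and clone 1 at 26.3% of the parental mean, nearly the same steps as in Ston2. On the log2 scale, Edil3 lay at -6.23 (SE 0.17) in clone 2 and -1.93 (SE 0.11) in clone 1 relative to parental cells.

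Tmem132b lies on chromosome 5 (125531774 to 125792583, plus strand). It had 0.438 and 0.487 CPM in clone 2, 4.13 and 3.89 CPM in clone 1, and 14.7 and 14.1 CPM in parental libraries. This was the same order of groups, again without overlap, with clone 2 at 3.21% and clone 1 at 27.9% of the parental mean. Against parental the log2 fold change was -4.96 (SE 0.14) in clone 2 and -1.84 (SE 0.10) in clone 1. Clone 2 over clone 1 was -4.20 (SE 0.09) for Ston2, -4.30 (SE 0.19) for Edil3 and -3.11 (SE 0.16) for Tmem132b.

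Sostdc1 lies on chromosome 12 (36314139 to 36318452, plus strand) and was the member that was higher in both clones. It had 5.95 and 6.31 CPM in clone 2, 56.5 and 50.1 CPM in clone 1, and 0.296 and 0.458 CPM in parental libraries. The counts were 394 and 389 in clone 2, against 3703 and 3438 in clone 1 and 19 and 27 in parental libraries. The log2 fold change against parental was 4.03 (SE 0.16) in clone 2 and 7.15 (SE 0.13) in clone 1, and clone 2 over clone 1 was -3.12 (SE 0.09). Its 141-fold range between the group means was the widest of the 8, and that of Nynrin, 16.7-fold, the narrowest.

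**Figure D2:**
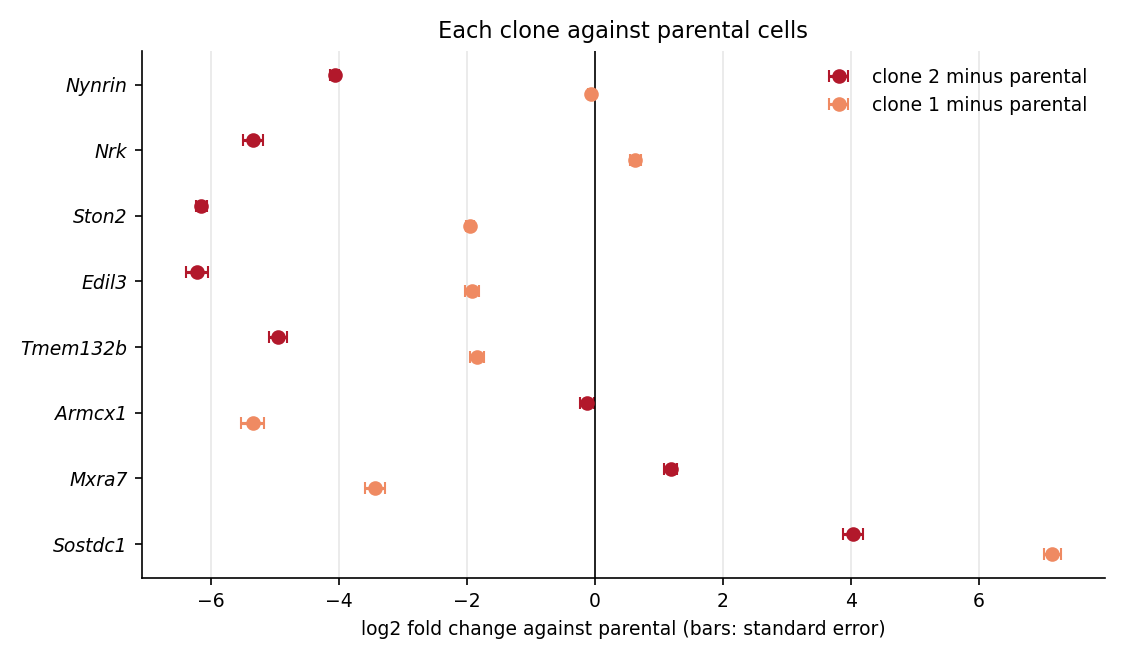
Log2 fold change of each gene against parental cells, in clone 2 (dark red) and clone 1 (orange), with standard errors from the fit of 6 libraries. Nrk and Mxra7 lie on opposite sides of 0 in the clones, Nynrin in clone 1 (-0.06) and Armcx1 in clone 2 (-0.12) lie near 0, and Sostdc1 lies above 0 in both.

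Scaled by exon length (CPM per kb of merged exons), the order of the genes differed between the groups. In clone 2 the highest level was that of Mxra7 at 5.63, followed by Sostdc1 at 3.44 and Armcx1 at 3.31, and the lowest was that of Edil3 at 0.016. In clone 1 Sostdc1 led at 29.9, followed by Nynrin at 9.34 and Nrk at 2.26, with Armcx1 lowest at 0.088. In parental cells Nynrin led at 9.73, followed by Ston2 at 6.84 and Armcx1 at 3.60, and Sostdc1 was lowest at 0.212 CPM per kb.

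Averaged over both clones on the log2 scale, 7 of the 8 genes fell relative to parental cells and Sostdc1 rose. In that comparison 56.5% of all tested genes passed the threshold, 27.9% higher and 28.5% lower, with a median log2 fold change of 0.00 over all genes. The changes were 5.59 (SE 0.14) for Sostdc1, -4.08 (SE 0.11) for Edil3, -4.05 (SE 0.06) for Ston2, -3.40 (SE 0.10) for Tmem132b, -2.74 (SE 0.12) for Armcx1, -2.36 (SE 0.11) for Nrk, -2.06 (SE 0.05) for Nynrin and -1.13 (SE 0.11) for Mxra7. No p is given for these values, since the choice of the genes largely fixes them where a clone lies near parental. For Nynrin, Armcx1, Nrk and Mxra7 the average lies between clones that differ, so it describes neither clone. With the libraries of each clone added and the clones as replicates, Sostdc1 alone passed edgeR's quasi-likelihood test, against 26.7% of all genes. Its log2 fold change was 6.33 (SE 1.39, adjusted p = 0.0416). Mxra7 turned to 0.27 (adjusted p = 0.907). The spread in that test holds the clone difference for which the genes were chosen.

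The genes most alike in pattern were sought among 14709 named genes averaging 1 CPM or more, by the root mean square distance between log2 CPM profiles centred over the 6 libraries. Ston2 and Edil3 were each other's nearest gene, at 0.11 on the log2 scale, although they lie on different chromosomes. Next to both came Bhlhe22, a transcription factor gene of neurons, and Shisa7, which encodes a partner of synaptic receptors. Bhlhe22 was at 0.0238, 0.552 and 2.67 CPM in clone 2, clone 1 and parental cells. Shisa7 was also second for Tmem132b (0.20), after Cyp2b13 (0.17) and before Hs3st3b1 (0.21). Cyp2b13 was at 0.0475, 0.634 and 2.48 CPM in clone 2, clone 1 and parental cells. At the clone 2 levels of Bhlhe22 and Cyp2b13, the prior count of 2 sets much of the log2 value. Shisa7 had 0.234 ± 0.0323 CPM in clone 2, 2.40 ± 0.141 in clone 1 and 10.1 ± 0.567 in parental cells (SD, n = 2), which is the same ladder. The profile distance is a description over 6 libraries in only 3 groups.

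Mxra7 was nearest to Cdkn1a, which encodes the cell cycle inhibitor p21 (0.16), to Evc, a gene of hedgehog signalling at the cilium (0.20), and to Ndufv3, a subunit gene of respiratory complex I (0.21). Cdkn1a had 289 ± 16.3 CPM in clone 2, 14.7 ± 1.01 in clone 1 and 125 ± 0.288 in parental cells. Ndufv3 had 96.7 ± 2.01, 5.52 ± 0.496 and 46.2 ± 0.532 CPM in the same groups, so abundant genes too followed the pattern of Mxra7. Armcx1 had Zfp454, Spock2 and Timp1 nearest, at 0.54 to 0.56. Spock2, which encodes a matrix proteoglycan, had 73.9 ± 2.98 CPM in clone 2, 1.13 ± 0.0469 in clone 1 and 102 ± 2.16 in parental cells.

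Nynrin was nearest to B3galt5 (0.21), the tubulin gene Tubb4a (0.24) and Nlgn3, a synaptic adhesion gene (0.34). B3galt5 was at only 0.155 CPM in clone 2, with 2.77 in clone 1 and 3.39 in parental cells. Tubb4a had 1.23 ± 0.158 CPM in clone 2, 14.6 ± 0.683 in clone 1 and 15.9 ± 0.0642 in parental cells. Nrk was nearest to Gprasp2 (0.38), then to the imprinted gene Nnat (0.62) and to Nynrin itself (0.80). Nnat had 7.79 ± 0.806 CPM in clone 2, 223 ± 8.73 in clone 1 and 379 ± 0.841 in parental cells. Sostdc1 had no gene close by this distance: the nearest, Gm5596, Car6 and Gas2l3, lay 0.79, 0.80 and 0.88 away. The distance also counts the size of the range, which was wide for Sostdc1, so a far gene can still share its order of groups. Gas2l3 had that order, at 39.4, 80.5 and 1.22 CPM in clone 2, clone 1 and parental cells.

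The genes of the Armcx and Gprasp family sit largely in a cluster on the X chromosome. Of the 9 other tested members, 2 were higher and 2 lower in clone 2 than in clone 1. Over all tested genes 16.1% were higher and 20.3% lower. The median of the family was -0.04, against -0.01 over all genes. Gprasp2, which encodes a sorting protein for G protein-coupled receptors, had 9 and 9 counts in clone 2, 390 and 405 in clone 1, and 394 and 363 in parental libraries (clone 2 over clone 1 -5.38, SE 0.20, adjusted p = 7.42e-12). Armcx6 went the other way, with 10.3 ± 0.638 CPM in clone 2, 1.68 ± 0.241 in clone 1 and 7.39 ± 0.133 in parental cells (2.62, SE 0.13, adjusted p = 1.61e-10). Armcx3, which lies close by, was at 74.8, 73.8 and 57.3 CPM, and the clones differed there by 0.02 (adjusted p = 0.814). The X-linked family thus held genes low in clone 2, low in clone 1 and near level between the clones.

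Armcx1 acts with the machinery that moves mitochondria on microtubules. Of 11 genes of that list 5 were higher and 1 lower in clone 2 than in clone 1 (median 0.21). The shares over all tested genes were 16.1% and 20.3%. Mgarp, a mitochondrial transport gene, was higher (2.98, SE 0.53) at a level of 0.484, 0.0596 and 0.0729 CPM in clone 2, clone 1 and parental cells. Snph, which encodes the mitochondrial anchor syntaphilin, was lower (-1.79, SE 0.29), at 0.283, 0.982 and 46.8 CPM. The adaptor genes Trak1 and Trak2 and the Miro gene Rhot1 differed by 0.23, 0.05 and 0.36, of which that of Trak2 did not pass. Mfn2, which encodes a mitofusin of the outer membrane, was higher by 0.42 (SE 0.05). Rhot1 is on chromosome 11, where genes of clone 2 were higher as a whole (median 0.24).

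For Nynrin, the paralog Khnyn is 10.2 kb away, and it was slightly higher in clone 2 than in clone 1 (0.27, SE 0.08, adjusted p = 0.0137), at 25.6, 21.3 and 29.3 CPM in clone 2, clone 1 and parental cells. Of 7 other RNases of the NYN and Regnase group, 2 were higher and 4 lower (median -0.38), against 16.1% and 20.3% of all genes. The widest gaps were those of Zc3h12d (-2.56), Zc3h12c (-0.43) and Zc3h12b (-0.41). Zc3h12d was at 0.0238, 0.148 and 0.137 CPM in clone 2, clone 1 and parental cells. For Nrk, the related kinase genes Tnik, Mink1 and Map4k4 were at 176, 54.4 and 686 CPM in clone 2, at 222, 38.4 and 654 CPM in clone 1 and at 158, 96.3 and 764 CPM in parental cells. Mink1 was higher (0.50) and Tnik lower (-0.33) in clone 2 than in clone 1, and Map4k4 did not pass (median of the 3, 0.07).

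For Ston2, the list held stonins and the clathrin adaptor AP2 and its partners. Of its 17 other genes, 4 were higher and 5 lower in clone 2 than in clone 1 (median -0.10). Between the clones 16.1% of all tested genes were higher and 20.3% lower. The cargo gene Syt1, for synaptotagmin 1, had the largest gap among those that passed (-1.40), at 3.31, 8.71 and 2.73 CPM in clone 2, clone 1 and parental cells. Fcho1 (-0.90) and Fcho2 (-0.43), which encode early factors of clathrin-coated pits, were also lower. The paralog Ston1 was at 0.0998 and 0.0517 CPM in clone 2 and clone 1, against 7.72 CPM in parental cells, and the difference between the clones did not pass (adjusted p = 0.301). Against parental cells the list had 1 higher and 12 lower in clone 2, where 53.5% of all tested genes passed, 26.7% higher and 26.8% lower. In clone 1 it had 3 higher and 10 lower, where 54.5% of all tested genes passed, 27.3% higher and 27.2% lower. Both comparisons share the parental libraries. For Mxra7, the similarly named Mxra8 was at 140, 146 and 145 CPM, and the clones differed by -0.06 (adjusted p = 0.399).

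For Edil3, the list held its relative Mfge8 and integrin and neuropilin genes. Of these 8, 1 was higher and 4 lower in clone 2 than in clone 1 (median -0.29). Among all tested genes 16.1% were higher and 20.3% lower. The integrin genes Itga5 (0.77) and Itgb5 (-0.65) and Mfge8 (-0.36) had the largest gaps among those that passed. Mfge8 was at 435, 556 and 268 CPM in clone 2, clone 1 and parental cells, so it was higher in both clones, where Edil3 was lower. Itgav and Itgb3, which pair in the classical receptor of Edil3, were at 362 and 0.36 CPM in clone 2, 424 and 0.545 CPM in clone 1 and 176 and 0.932 CPM in parental cells.

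For Sostdc1, 17 other genes of its list of Wnt and BMP antagonists, BMPs and receptors were tested. Of these, 5 were higher and 6 lower in clone 2 than in clone 1 (median -0.16). Over all tested genes the shares were 16.1% and 20.3%. Other secreted antagonists went both ways. Wif1 was at 13.0, 43.4 and 3.83 CPM and Chrdl1 at 25.1, 50.9 and 8.57 CPM in clone 2, clone 1 and parental cells, the same order of groups as Sostdc1 (clone 2 over clone 1 -1.74 and -1.02). Frzb (3.16) and Sfrp2 (1.80) were higher in clone 2 than in clone 1, at 0.684 and 0.655 CPM in clone 2, 0.0746 and 0.187 CPM in clone 1 and 2.75 and 0.259 CPM in parental cells. The paralog Sost was not tested, with at most 0.165 CPM in any group. Lrp4, a receptor that binds Sostdc1, was at 147, 104 and 190 CPM, and Lrp6, the Wnt co-receptor, at 138, 172 and 141 CPM. In the Tmem132 family 3 other genes were tested, and Tmem132d (-1.89) and Tmem132e (-0.55) were lower in clone 2 than in clone 1 (0 higher, median -0.55).

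**Figure D3:**
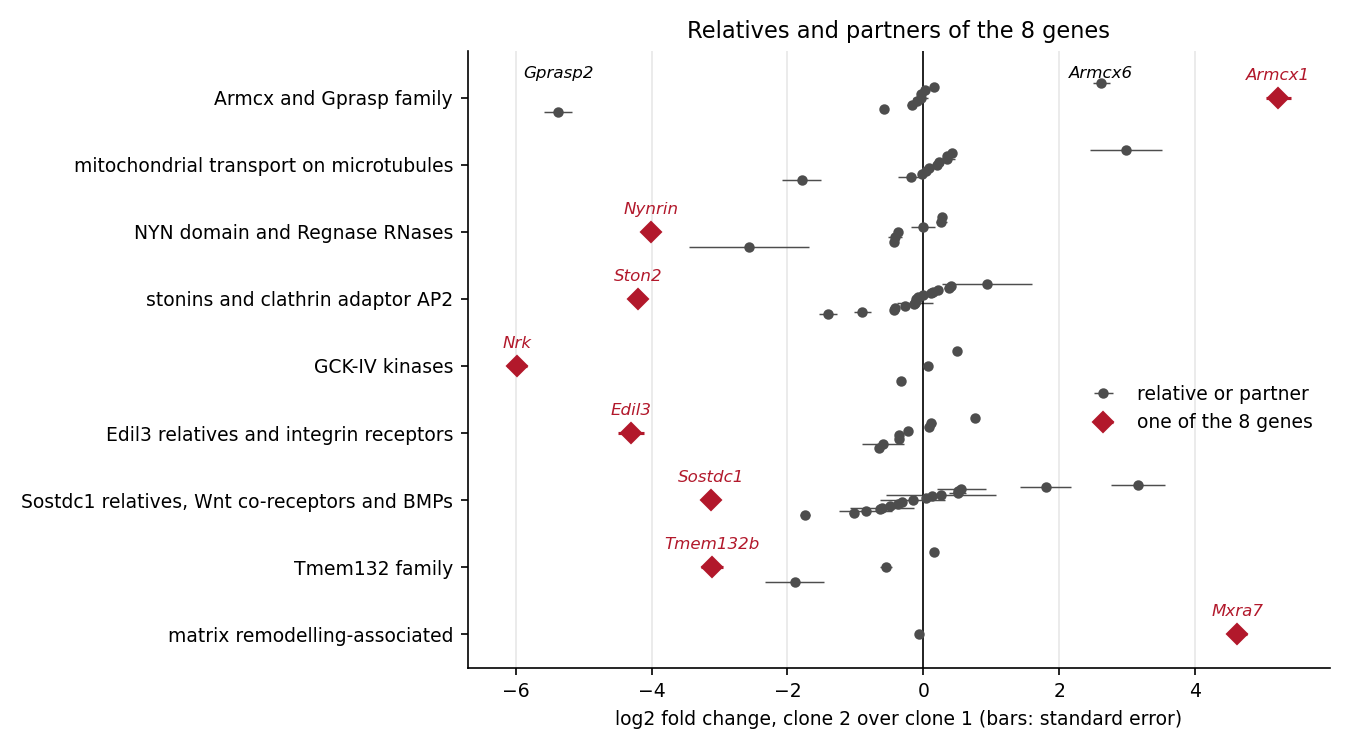
Log2 fold change of clone 2 over clone 1 with its standard error for tested genes of the lists of relatives and partners (grey) and for the 8 genes (red diamonds). Gprasp2 (-5.38) and Armcx6 (2.62) lie far from 0 on opposite sides.

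Within 500 kb of the 8 genes, 113 other genes were tested and 44 passed between the clones, 38.9% against the 36.4% of all genes; this total was added after the values of single genes were seen. Of the 44, 28 went in the direction of their member and 16 in the other. Going with the member by at least 1 on the log2 scale were 6 genes. They were Armcx6 and the pseudogene Gm16397 near Armcx1, the genes Mgat5b and St6galnac2 and the pseudogene Gm11735 near Mxra7, and Gm8378 inside Ston2, whose reads cannot be told apart from those of Ston2. Armcx6 lies 26.5 kb from Armcx1, and Gm16397, at 0.685, 0.112 and 0.517 CPM in clone 2, clone 1 and parental cells, lies between them.

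The nearest named genes gave no common pattern. Beside Nynrin, Cbln3 at 4.18 kb and Nfatc4 at 20.1 kb did not pass (adjusted p = 0.763 and 0.0671), and 10 of the 11 called genes within 500 kb went against Nynrin. Armcx1 had Armcx6 on one side, which followed it, and Armcx4 at 21.2 kb on the other, which differed by -0.10 (adjusted p = 0.242). Beside Nrk, Pwwp3b was lower in clone 2 than in clone 1 (-0.79, adjusted p = 0.000104) and Il1rapl2 did not pass (-1.40, adjusted p = 0.0653). Ston2 had Gtf2a1, which was lower (-0.21, adjusted p = 0.00567), and Sel1l (0.10, adjusted p = 0.0617). Sostdc1 had Ankmy2, which was lower (-0.25, adjusted p = 0.00415). Hapln1 beside Edil3 (2.50, SE 1.26) and Aacs beside Tmem132b (-0.07) did not pass (adjusted p = 0.14 and 0.477). Where a nearest named gene passed in its member's direction, the gap was smaller than the member's.

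**Figure D4:**
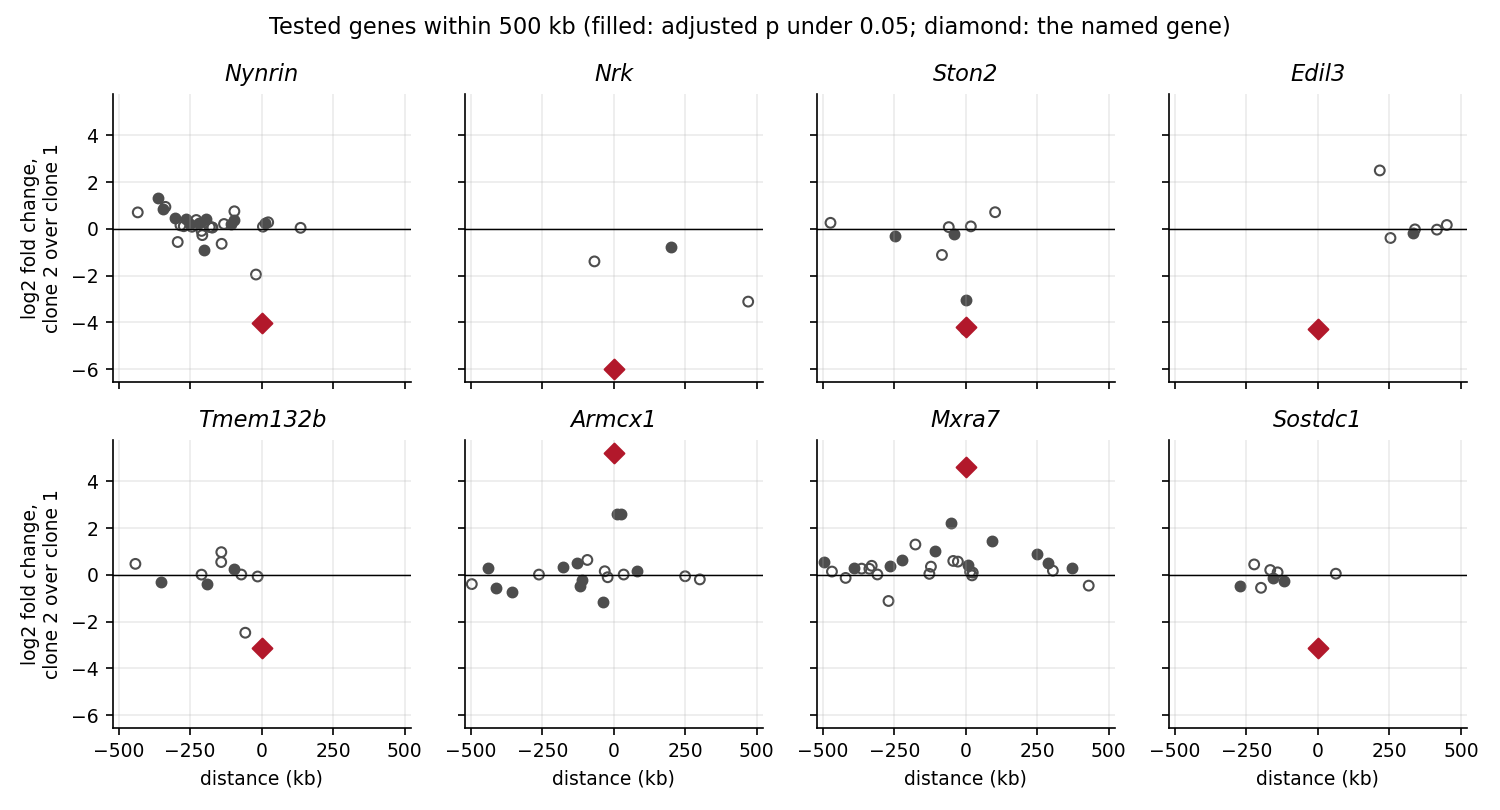
Log2 fold change of clone 2 over clone 1 for tested genes within 500 kb of each of the 8 genes, by distance in kb (0 for overlap), filled where the adjusted p was under 0.05. The 8 genes are drawn as diamonds; all filled neighbours of Mxra7 lie above 0.

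All 11 called genes within 500 kb of Mxra7, of 28 tested, were higher in clone 2 than in clone 1, among them its nearest gene Jmjd6 (0.43, SE 0.06), Mgat5b (1.45, SE 0.09) and Sec14l1 (0.50, SE 0.04). St6galnac1, nearest on the other side, did not pass (adjusted p = 0.695). Over chromosome 11, which was compared with the other chromosomes after its values were seen, 786 of 1608 tested genes passed (48.9%), 625 higher and 161 lower in clone 2. The chromosome's median log2 fold change was 0.24, against a range of -0.08 to 0.05 over the other 19 chromosomes tested. Against parental cells the median of chromosome 11 was 0.17 in clone 2, where the other 19 ran from -0.29 to 0.08. In clone 1 it was -0.12, inside the range of -0.32 to 0.12 of the others, and chromosome 15 was lowest in both clones. The gap of Mxra7, 4.62, is far larger than this shift, and the part of the shift in it was not tested. On the X chromosome, where Nrk and Armcx1 lie, 86 genes were higher and 208 lower in clone 2 than in clone 1, of 762 tested, with a median of -0.07.

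**Figure D5:**
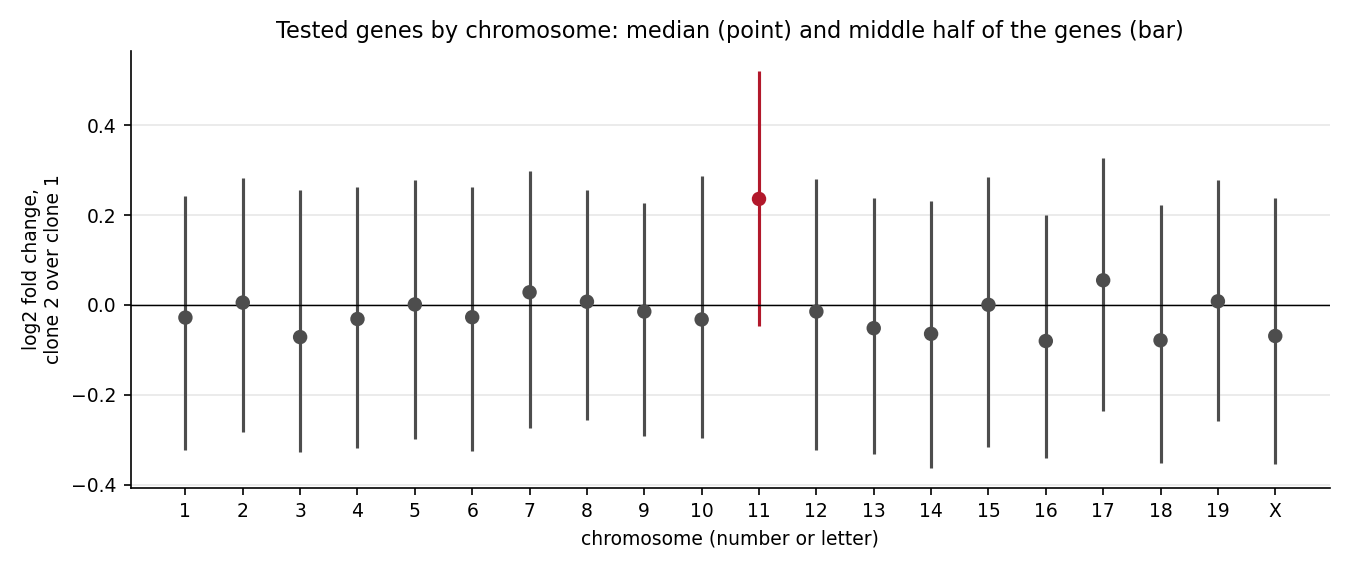
Median log2 fold change of clone 2 over clone 1 for the tested genes of each chromosome (points), with the span between the lower and upper quartile (bars). Chromosome 11, which holds Mxra7, has a median of 0.24, and the other medians lie between -0.08 and 0.05.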

How the data were processed

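Per the submitters' processing notes, STAR and featureCounts were used with GRCm38.p6 and mm10; no version, strand or multi-mapping setting is named there. Per the labels, libraries were made with an ultra-low input kit or a TruSeq kit, without saying which. The deposited file holds whole-number counts per gene, not normalized, in 6 columns matched to samples by name. Coordinates and exon lengths came from GENCODE M21 (GRCm38), in which 41869 of 42365 IDs were found, and promoters from RefSeq (6 of 8 genes matched).

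The count analysis used edgeR 4.0.16 in R 4.3.3: filterByExpr (minimum count 10), TMM, 1 fit of 6 libraries in 3 groups, robust quasi-likelihood tests, and Benjamini-Hochberg adjustment over 23400 genes at 0.05. The SE is the size of the log2 fold change divided by the square root of F. Profile distances were taken on log2 CPM (prior count 2). Precision is judged from 2 libraries a group, and reads are not independent molecules. The fits were tested on simulated data. Alternatives were other scalings and filters, DESeq2 1.42.0, a replicate block, clones as replicates and leaving out each library.

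The genes and the 10 lists were chosen with earlier results of these data known. The text names the 8 genes, the 3 nearest in profile to each, the nearest named gene on each side and up to 3 called genes per list; other list genes and neighbours named were picked after their values were seen. Values of the targeted gene and of 1 neighbouring gene are not reported here.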

Additional observations from a re-analysis of the deposited data

Results flagged for a closer look

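Mxra7 and Nrk went in opposite directions in the clones: every library of one clone lay above and every library of the other below both parental libraries. For Mxra7 the log2 fold change against parental was 1.18 in clone 2 and -3.44 in clone 1. For Nrk it was -5.35 in clone 2 and 0.63 in clone 1. The difference between the clones chose these genes, so its p is not given as support, and it was not tested in libraries outside that choice.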

How the results depend on the processing

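Among 11015 genes of at least 5 CPM the called genes numbered 7845 for clone 2 and 8014 for clone 1 against parental and 8168 for their average, and with the clones as replicates the average had 6532, against 12520, 12752 and 13213 reported; the other 45 recomputed counts lay within 1.5 times of the reported ones. With the clones as replicates Mxra7 reversed to 0.27 for the averaged clones, and Armcx1, Nynrin, Ston2, Nrk, Edil3 and Tmem132b kept their direction but missed the threshold (adjusted p from 0.132 to 0.907). Averaging counts before the logarithm weights the higher clone. Leaving out each library in turn gave 5765 to 9291 called genes between the clones (8511 reported), 10433 to 14052 for clone 2, 10469 to 12863 for clone 1 and 10834 to 14320 for their average; a lone library was then assumed to vary like the other groups. No member reversed or lost its call against parental in these, with other scalings, other filters or DESeq2. The replicate number as a block gave 8449 called genes between the clones, 12412 for clone 2, 12659 for clone 1 and 13140 for their average; deviations of same-numbered libraries correlated at -0.02 to 0.02, so the numbers do not pair the samples. Library totals in place of TMM moved the 24 group levels by 0.242% to 1.79%. Depth limits the low groups, chiefly Edil3 and Nrk in clone 2 and Armcx1 and Sostdc1 where they had 13 to 27 reads.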

Other observations

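Genes of DNA methylation, Polycomb and related silencing enzymes, a list of 19, had 2 higher and 8 lower in clone 2 than in clone 1, with a median log2 fold change of -0.10; over all tested genes 16.1% were higher and 20.3% lower. The maintenance methyltransferase gene Dnmt1 was at 149 CPM in clone 2, 157 in clone 1 and 156 in parental cells, and the clones differed by -0.08 (adjusted p = 0.247). Uhrf1, which recruits Dnmt1 to replicating DNA, was at 40.6, 60.4 and 5.52 CPM (clone 2 over clone 1 -0.57). The Polycomb methyltransferase gene Ezh2 was at 63.1, 85.0 and 39.3 CPM (-0.43). Its paralog Ezh1 went the other way, at 25.7, 19.8 and 39.1 CPM in clone 2, clone 1 and parental cells (0.37, SE 0.06). The de novo methyltransferase gene Dnmt3a was at 201, 181 and 205 CPM (0.15, adjusted p = 0.0202).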
